A study of Arabidopsis thaliana with 12 samples.

Results

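FATB (AT1G08510), AT2G04540 and AT4G13550 are 3 Arabidopsis thaliana genes of fatty acid and lipid metabolism, out of 691 genes that had a probe of their own on the array. FATB encodes an acyl-ACP thioesterase, AT2G04540 a beta-ketoacyl synthase and AT4G13550 a protein of the lipase family. They were chosen by their intensities and ranks in pete1 against WT on these same arrays, as seen in earlier analyses, so their levels are described here without a test. Total RNA was hybridised from 6 samples of the wild type (WT, ecotype Columbia 0) and 6 of pete1, a mutant in the same ecotype that is missing 1 of the 2 plastocyanin isoforms. Plastocyanin, a copper protein of the thylakoid lumen, passes electrons to photosystem I. Plants of both genotypes grew on MS medium, a standard salt medium for plant culture. The labels number the samples 1 to 6 in each genotype. They give no tissue, no plant age, no mutant allele and no number of plants per sample, and nothing says that the samples came from separate plants, so any spread or p-value given here may be technical.

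Fatty acids of plant cells are built mainly in the plastid, on acyl carrier protein (ACP), by a cycle in which a beta-ketoacyl synthase adds carbon units to the growing chain. A smaller, separate pathway of the same kind runs in mitochondria. Whether AT2G04540 acts in the plastid or in mitochondria was not examined here. Acyl-ACP thioesterases end plastid synthesis by releasing the chain from ACP, after which the free fatty acid can leave the plastid, and the FATB type acts largely on saturated chains. Lipases work in the opposite direction, cutting fatty acids from glycerolipids such as those of the thylakoid membranes that also hold the photosynthetic electron carriers. In RNA pooled over many cells, a change in the share of cells that express a gene cannot be told apart from a change in the RNA of each cell.

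The arrays gave a linear intensity for each of 3439 probes, scaled by the authors in a way that the sources used here do not give. Sample means lay between 1.05 and 1.07 in WT and between 0.917 and 1.01 in pete1. The medians lay further apart, between 0.485 and 0.627 in WT and between 0.279 and 0.331 in pete1. The mean intensity was lower in pete1 for 2774 probes and higher for 585. A gene is therefore given both by its deposited intensity and by its percentile rank, the place of its intensity among the 3439 probes of the same sample on a scale from 0 to 100. None of 21 marker genes of green tissue, root, seed and flower had a probe of its own, so the tissue was not checked.

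FATB, the thioesterase, had a higher mean intensity in pete1 than in WT, with overlapping samples. In WT the intensities of samples 1 to 6 were 0.138, 0.136, 0.201, 0.144, 0.0895 and 0.126. In pete1 they were 0.136, 0.177, 0.242, 0.318, 0.155 and 0.260. Samples 3, 4 and 6 of pete1 lay above every WT sample, while samples 1, 2 and 5 fell inside the WT range. WT averaged 0.139 ± 0.0362 (SD, n = 6) and pete1 0.215 ± 0.0703, a ratio of 1.54. Between samples of the same number, pete1 was higher in 5 of 6 cases, and number 1 was the exception.

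On ranks the FATB groups separated. The probe stood at percentile 10.6, 10.9, 20.1, 14.6, 9.42 and 11.7 in WT samples 1 to 6, toward the dim end of the array. In pete1 it stood at 29.3, 34.7, 41.4, 50.3, 26.3 and 42.2. The lowest pete1 sample was 6.16 percentile points above the highest WT sample, and the mean rank differed by 24.5 points. FATB was the most variable of the 3 genes. Its intensity had a coefficient of variation of 26.0% in WT and 32.8% in pete1, and its highest pete1 sample was 2.34 times its lowest. Averaging consecutive numbers, which resemble each other across the whole array, gave 0.137, 0.173 and 0.108 in WT and 0.157, 0.280 and 0.207 in pete1, where the lowest pete1 average still lay below the highest WT average.

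AT2G04540, the beta-ketoacyl synthase, had a lower intensity in pete1 but a higher rank. Its intensities in WT samples 1 to 6 were 0.638, 0.678, 0.585, 0.624, 0.598 and 0.562. In pete1 they were 0.419, 0.461, 0.530, 0.570, 0.571 and 0.507. Samples 1, 2, 3 and 6 of pete1 lay below every WT sample, and samples 4 and 5 overlapped only with the lowest WT sample, number 6. WT averaged 0.614 ± 0.0414 (SD, n = 6) and pete1 0.510 ± 0.0607, a ratio of 0.830. The intensity was lower in pete1 for all 6 numbers, as it was for 52.6% of all probes.

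The rank of AT2G04540 differed in the other direction. It was 51.0, 53.7, 57.5, 59.3, 56.3 and 53.6 in WT samples 1 to 6, close to the middle of the array, and 62.9, 64.4, 67.6, 69.8, 69.2 and 65.2 in pete1. The lowest pete1 sample stood 3.66 points above the highest WT sample, and the mean rank differed by 11.3 points. Between samples of the same number, the rank was higher in pete1 by 10.1 to 12.9 points, a narrow range. Divided by the median intensity of its own sample, the AT2G04540 value was 1.13 ± 0.0930 in WT and 1.65 ± 0.125 in pete1. This gene was the steadiest of the 3, with a coefficient of variation of 6.74% in WT and 11.9% in pete1. In averages of consecutive numbers, all pete1 intensities (0.440, 0.550 and 0.539) lay below all WT intensities (0.658, 0.604 and 0.580). The share of all probes with such averages was not counted. In single samples, where AT2G04540 overlapped, 32.8% of all probes had every pete1 sample below every WT sample.

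AT4G13550, of the lipase family, differed little in intensity and clearly in rank. Its intensities in WT samples 1 to 6 were 0.118, 0.126, 0.135, 0.170, 0.123 and 0.113. In pete1 they were 0.128, 0.149, 0.157, 0.114, 0.197 and 0.172. Samples 5 and 6 of pete1 lay above every WT sample and the other 4 fell inside the WT range. WT averaged 0.131 ± 0.0206 (SD, n = 6) and pete1 0.153 ± 0.0301, a ratio of 1.17. Number 4 went against the other 5, with 0.170 in WT, the highest WT value, and 0.114 in pete1, the lowest pete1 value.

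The AT4G13550 probe stood at percentile 9.65, 10.3, 13.6, 17.3, 11.2 and 10.9 in WT samples 1 to 6 and at 27.8, 30.4, 28.7, 22.2, 32.8 and 29.3 in pete1. All pete1 samples again lay above all WT samples, by 4.89 points at the closest, and the mean rank differed by 16.4 points. For number 4 the pete1 rank was 4.89 points higher, and for the other numbers up to 21.6 points higher. In averages of consecutive numbers the intensities were 0.122, 0.153 and 0.118 in WT and 0.138, 0.135 and 0.185 in pete1, which overlap.

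**Figure D1:**
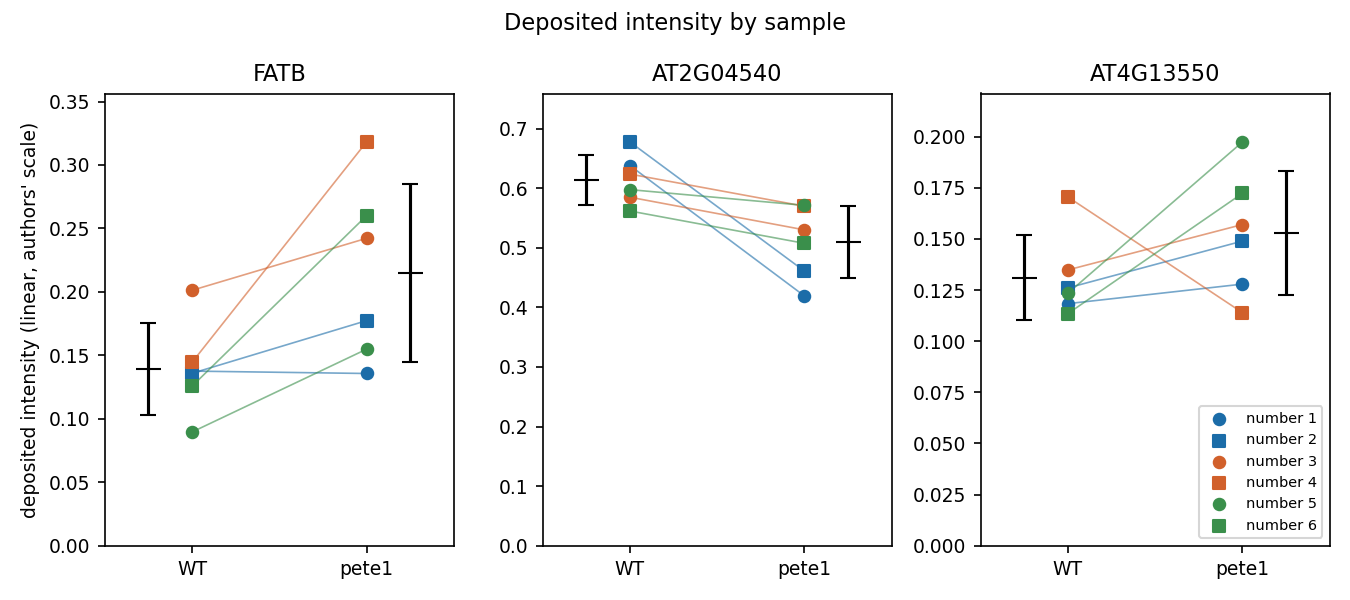
Deposited intensity (linear, on the authors' scale) of FATB, AT2G04540 and AT4G13550 in WT and pete1, with a point for each sample, a line between samples of the same number, and the mean ± SD (n = 6) in black beside each group; each colour holds a pair of consecutive numbers. FATB is higher in pete1 for 5 of 6 numbers, AT2G04540 is lower for all 6, and AT4G13550 is higher for 5 of 6, and the groups overlap in all 3 panels.

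**Figure D2:**
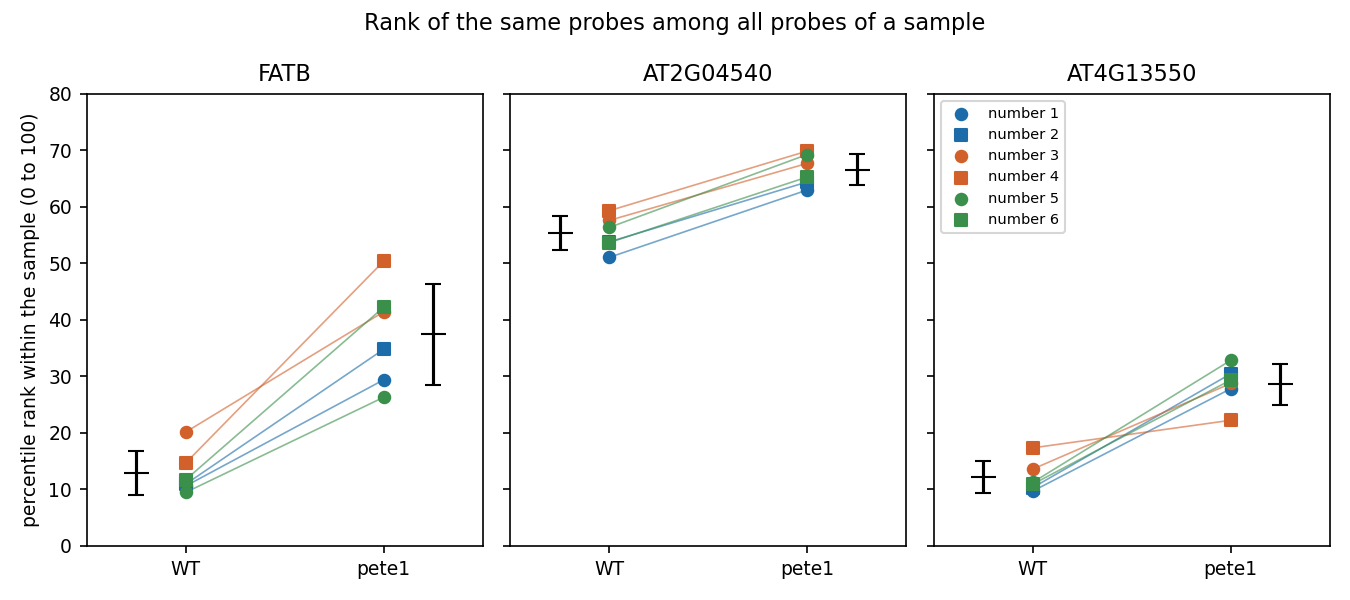
Percentile rank of the same probes among the 3439 probes of each sample, drawn as in the plot of intensities, with 1 axis for all panels. All pete1 samples lie above all WT samples for each gene, and the mean differs by 24.5 points for FATB, 11.3 for AT2G04540 and 16.4 for AT4G13550.

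Higher ranks in every pete1 sample than in every WT sample were found for all 3 genes and for 10.3% of all 3439 probes (353 probes). Of these 353, 80 are probes listed at 0 in every sample, whose shared rank is higher in pete1 because more probes are at 0 there. Without them the share was 8.13%. Since the genes were chosen for this contrast, their agreement on ranks adds nothing to it. Among the 353, the mean intensity was lower in pete1 for 64 probes (1.86% of all), AT2G04540 included, and higher for 209 (6.08% of all), FATB and AT4G13550 included. In intensities, the groups did not overlap for 1.60% of all probes with pete1 above WT and 32.8% with pete1 below WT, and none of the 3 genes was among either.

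The size of each difference on a log2 scale followed the scaling. In the intensities as deposited, the log2 difference of pete1 against WT was 0.60 (SE 0.24) for FATB, -0.27 (SE 0.09) for AT2G04540 and 0.21 (SE 0.14) for AT4G13550, while the median over all probes was -0.73. Relative to that median, the 3 genes stood at 1.33, 0.46 and 0.94. After quantile normalisation, which gives each sample the same distribution, the log2 differences were 1.91 (SE 0.30), 0.44 (SE 0.07) and 1.59 (SE 0.22). The direction of FATB and AT4G13550 was the same in both, and that of AT2G04540 turned. The log2 difference of FATB and AT4G13550 was wider after normalisation even relative to the median. With a larger offset it was 1.33 for FATB and 1.06 for AT4G13550. With only probes above 0 in every sample it was 1.68 and 1.37. Their lowest WT ranks were 9.42 and 9.65, toward the dim end of the array. In a pete1 sample 244 to 293 probes were at 0, against 170 to 206 in WT. Normalisation moved their mean log2 values from -2.89 to -3.72 and from -2.94 to -3.80 in WT. In pete1 they moved from -2.28 to -1.81 and from -2.73 to -2.20. The part of the zeros in this widening was not tested. The standard errors above treat 12 samples as independent. With consecutive numbers as a random block they grew to 0.55, 0.12 and 0.34 after normalisation, and to 0.51, 0.15 and 0.30 in the deposited scale. Blocked on the sample number, they were 0.16, 0.04 and 0.26 after normalisation, smaller for FATB and AT2G04540 and larger for AT4G13550.

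**Figure D3:**
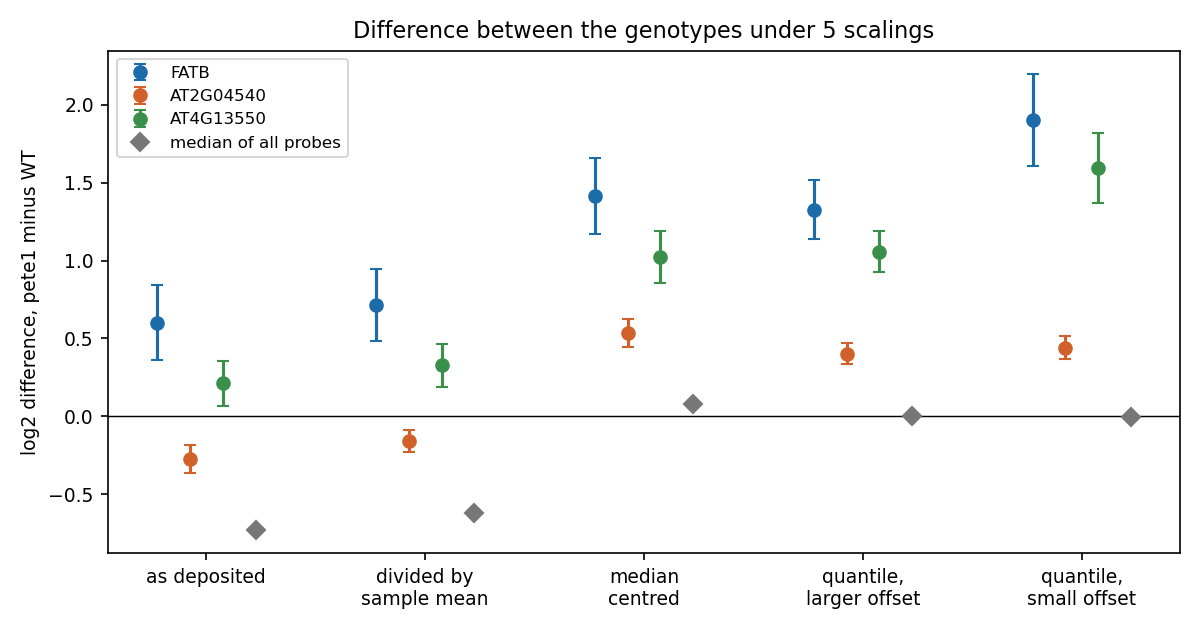
Log2 difference of pete1 minus WT (points) with its standard error (bars, 12 samples) for the 3 genes under 5 scalings, beside the median over all 3439 probes (grey diamonds, no error). AT2G04540 lies at -0.27 as deposited and at -0.16 after division by the sample mean, and above 0 under the other 3 scalings. All 3 genes lie above the grey diamond, which adds nothing, since they were chosen for this contrast. Division by the mean and median centring rescale each sample as a whole. The distance of a gene from the diamond is therefore nearly the same there as in the deposited values, by construction.

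The other genes of fatty acid synthesis, lipid assembly and lipid breakdown came from a list of 119 loci drawn from textbook pathways. A probe for a single gene existed for 7 of them, the 3 genes above and 4 others. None of the 4 passed limma after quantile normalisation, against 21.7% of all probes in either direction. At an unadjusted p under 0.05 the count was also 0 of 4, against 1198 of all 3439 probes. These shares treat 12 samples as independent. With consecutive numbers as a random block, 0 of the 4 passed limma, against 4.74% of all probes. The median log2 difference of the 4 after normalisation was 1.80, with values from -0.22 to 2.83, and that of all probes was -0.01. The median of the 4 turned to -1.73 in the intensities as deposited and to -0.92 after median centring, so it has no settled direction. Zeros occurred in 3 of the 4 probes, and there the small offset sets the size of a log2 difference.

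AT1G24360, listed among the plastid synthesis genes, was the only one of the 4 with intensities well away from 0. Its intensities were 0.374, 0.341, 0.307, 0.300, 0.216 and 0.279 in WT samples 1 to 6. In pete1 they were 0.0784, 0.0741, 0.135, 0.189, 0.125 and 0.169, all below the lowest WT sample, as for 32.8% of all probes. The log2 difference was -0.22 after normalisation (limma adjusted p = 0.477). As deposited it was -1.30 (limma adjusted p = 0.00132), where 50.8% of all probes passed as lower. It also passed there when consecutive numbers formed a random block (limma adjusted p = 0.0285), as did 28.0% of all probes on the lower side. Its mean percentile rank was 27.2 in WT and 24.0 in pete1.

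The remaining 3 genes were close to 0 throughout. AT5G16230, also from the plastid list, was listed at 0 in all 6 WT samples and 4 pete1 samples, with 0.00117 and 0.00770 in pete1 samples 3 and 4 (limma adjusted p = 0.273). AT3G45770, from the mitochondrial list, was at 0 in 2 WT and 3 pete1 samples and at most 0.0445 elsewhere (limma adjusted p = 0.656). AT3G61680, listed with the lipases, was between 0.0150 and 0.0580 in WT, was at 0 in pete1 samples 1 and 2 and reached 0.0393 in pete1 (limma adjusted p = 0.502).

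A further 8 probes listed several genes with at least 1 from the lipid list, so that no single gene can be named for them. After normalisation 1 of the 8 passed limma as higher and none as lower, where 10.7% of all probes passed as higher and 11.0% as lower. That probe, listed for AT3G57280 and AT2G38550, had a limma adjusted p of 0.0338 although WT averaged 0.0289 ± 0.0327 (SD, n = 6) and pete1 0.0291 ± 0.0197. Its log2 difference after normalisation was 5.78, and 1 of its WT samples was at 0. Low values above 0 were also set far apart by the normalisation. WT sample 1, at 0.0322, became -12.8 on the log2 scale, while pete1 sample 1, at 0.0165, became -4.41. More probes were at 0 in a pete1 sample (244 to 293) than in a WT sample (170 to 206). The probe also passed when the fit was blocked on the sample number (limma adjusted p = 0.0229), where 11.0% of all probes passed as higher. It did not pass when consecutive numbers formed a random block (limma adjusted p = 0.342). As deposited, 5 of the 8 passed as lower, beside 50.8% of all probes.

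The probe that lists FATB together with AT3G25110 (FaTA, the other class of acyl-ACP thioesterase) and AT4G13050 gives a second, shared view of the thioesterases. Its intensities were 0.719, 0.444, 0.196, 0.207, 0.577 and 0.634 in WT samples 1 to 6, and 0.764, 0.601, 0.240, 0.364, 0.542 and 0.451 in pete1. Numbers 3 and 4 were the lowest in both genotypes, whereas FATB's own probe had its highest WT value in number 3 and its highest pete1 value in number 4. The mean rank of the shared probe was 41.1 in WT and 62.6 in pete1, and its log2 difference after normalisation was 0.94 (limma adjusted p = 0.110). It passed when the fit was blocked on the sample number (limma adjusted p = 0.0299), where 11.0% of all probes passed as higher. It did not pass when consecutive numbers formed a random block (limma adjusted p = 0.392). The probe listed for AT3G25110 and AT4G13050 without FATB averaged 0.711 ± 0.0571 in WT (SD, n = 6) and 0.429 ± 0.0908 in pete1. All its pete1 samples lay below all its WT samples, as for 32.8% of all probes. Its mean rank was 61.1 in WT and 60.5 in pete1, and its log2 difference after normalisation was -0.02 (limma adjusted p = 0.959).

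**Figure D4:**
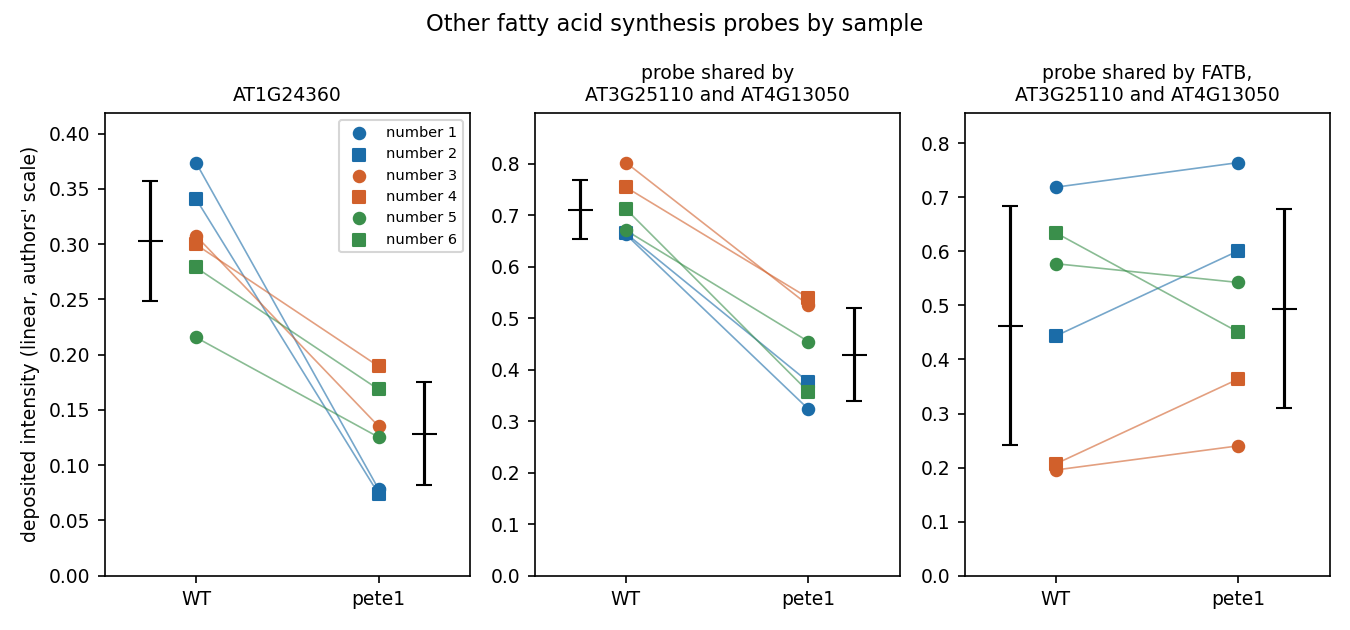
Deposited intensity (linear, on the authors' scale) of AT1G24360 and of 2 shared thioesterase probes in WT and pete1, drawn as in the plot of the 3 genes' intensities. AT1G24360 and the probe of AT3G25110 and AT4G13050 are lower in every pete1 sample than in any WT sample, as are 32.8% of all probes. The probe that also lists FATB overlaps between the genotypes, with numbers 3 and 4 lowest in both.

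The genes with the rank profile most like each of the 3 were sought among the other 594 single-gene probes above 0 in every sample. Likeness was the mean absolute difference of percentile ranks over the 12 samples, after each gene's own mean was subtracted, so that a shared gap between the genotypes counts in it. For AT2G04540 the closest were AT4G27390 at 1.93 points, AT3G46950 at 2.03 and AT3G56810 at 2.10, beside a median of 8.40 over all probes compared. For AT4G13550 they were AT3G46950 at 3.57, AT4G22490 at 3.64, and AT2G04540 and AT5G27860 both at 3.73, beside a median of 10.1. For FATB they were AT5G19900 at 4.30, AT4G30740 at 4.49 and AT2G39000 at 4.71, beside a median of 13.8. Since the 3 genes were chosen by their ranks in pete1 against WT, how close they are to each other is no result.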

How the data were processed

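The deposited table holds 1 intensity per probe and sample. For the authors' array reader, background correction and scaling, the method is not given in the sources used here. No per-spot background was used. The number of samples limits the precision. Probes were named from the platform annotation through RefSeq (TAIR10.1). There were 692 probes with 1 gene (690 matched), 870 with several and 1877 with none. The offset of 4.74e-05, the smallest positive intensity, was added before log2, and values were quantile normalised. Fits used limma 3.58.1 (R 4.3.3, statmod 1.5.0), two-sided, with Benjamini-Hochberg adjustment over 3439 probes and a threshold of 0.05. In simulated data for pete1 against WT over 3439 probes, the fit recovered 53% of 2-fold and 82% of 4-fold changes and called 9 unchanged probes. The simulated samples were drawn independently, whereas consecutive numbers in the real data resemble each other, so these figures need not hold for the real data.

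The genes and lists were chosen with earlier results of these data known. Named genes were the 3 chosen genes, all lipid list genes with their own probe, and the 3 closest rank profiles of each, ties included. The description words added no gene to the list. After subtraction of the genotype mean, WT and pete1 samples of equal number correlated at 0.221 to 0.452. Samples of unequal number were not compared between the genotypes and the labels state no pairing, so these values cannot show that the numbers pair the samples. Consecutive numbers of a genotype (1 and 2, 3 and 4, 5 and 6) had Spearman correlations of 0.955 to 0.980, against 0.849 to 0.901 for other numbers, and were kept as separate samples, with a random block, averages, other scalings and offsets, a filter on zeros and left-out samples as alternatives.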

Additional observations from a re-analysis of the deposited data

Results flagged for a closer look

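Of 35 groups of 6 values examined for a sample far from the others, 3 stood out, and chance picks out about 5% of groups of independent samples. AT4G13550 in WT had an intensity of 0.170 in sample 4, with the other 5 between 0.113 and 0.135. AT3G45770 in pete1 was at 0.0410 in sample 5, with the others between 0 and 0.0131 and 3 of them at 0. AT5G16230 in pete1 was at 0.00770 in sample 4, with the others between 0 and 0.00117 and 4 of them at 0. For groups with several values at 0, the 5% need not hold.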

How the results depend on the processing

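Against 746 probes past the threshold (369 higher and 377 lower in pete1), log2 intensities as deposited gave 1861 (115 higher and 1746 lower), division by the sample mean 1688, consecutive numbers as a random block 163 and their averages 7, and median centring gave 664 higher and 357 lower. The sample number as a block gave 743, and leaving out 1 sample 550 to 722. Of the 4 other lipid genes, 0 passed, against 1 (AT1G24360) as deposited, as deposited with the random block, and after division by the sample mean, and 0 on leaving out 1 sample. The log2 difference of FATB (1.91) was 1.33 with the larger offset, 0.60 as deposited, with or without the random block, and 0.72 after division by the mean. That of AT4G13550 (1.59) was 1.06, 0.21 and 0.33 there, and 1.02 after median centring. That of AT2G04540 (0.44) turned to -0.27 as deposited and -0.16 after division by the mean. AT3G45770 and AT3G61680, both with zeros, turned from 1.52 and 2.08 to -2.16 and -3.21 as deposited, -2.10 and -3.13 after division by the mean, and -1.35 and -2.40 after median centring. On leaving out 1 sample, the normalised log2 difference was 1.74 to 2.13 for FATB, 0.41 to 0.47 for AT2G04540 and 1.5 to 1.78 for AT4G13550, and the deposited one 0.48 to 0.72, -0.31 to -0.22 and 0.13 to 0.29. Among the 8 shared probes, 0 to 2 passed on leaving out 1 sample. Division by the mean, the deposited values with the random block, the left-out samples on the deposited scale and all fits of the shared probes were chosen after seeing the data. Apart from what each scaling does by construction, the cause of these changes was not tested.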

Other observations

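A probe listed for AT5G16240 and AT3G02630, both entered with the plastid fatty acid synthesis genes, split by sample number and not by genotype. Its intensity was between 3.89 and 5.41 in samples 1 to 4 of both genotypes and between 0 and 0.0420 in samples 5 and 6 of both. Of 3439 probes, 3 were this low in numbers 5 and 6 (under 10% of the lowest of the other samples), 8 in numbers 3 and 4 and 1 in numbers 1 and 2, a count made after this probe was seen.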
